A study of Mus musculus with 9 samples.

Results

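The synthesis of prostaglandins and leukotrienes from arachidonic acid was followed through 10 genes, chosen by symbol for the step that each protein performs. The 10 are Pla2g4a, Ptgs1, Ptgs2, Ptges, Ptges2, Ptges3, Tbxas1, Alox5, Alox5ap and Lta4h, out of 24061 gene symbols in the table of counts. All 10 had exactly 1 row in it, and all 10 passed the filter on low counts in every comparison. The cells were bone-marrow-derived macrophages (BMDMs), primary macrophages grown from the marrow of wild-type C57BL/6J female mice aged 8 to 10 weeks in medium conditioned by L cells. After 7 days the cells were deprived of serum for 1 day and treated on day 8. There were 3 groups of 3 polyA RNA-seq libraries each. The vehicle group (Veh) received DMSO and no LPS. The LPS group received DMSO and then 10 ng/mL of LPS, a ligand of Toll-like receptor 4, for 2 hr. The T0+LPS group received 500 nM of T0901317 (T0), an agonist of the nuclear receptor LXR, for 3 hr. The same LPS was then added to the medium that held T0. T0 was not given without LPS, so its difference is measured on LPS-stimulated cells alone. A replicate was a separately differentiated culture, and the sources used here do not tie cultures to single mice.

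Macrophages make eicosanoids when a phospholipase frees arachidonic acid from membrane phospholipids. Cyclooxygenases turn it into prostaglandin H, which terminal synthases convert to prostaglandins or thromboxane, the local mediators of fever, pain and vascular tone. In a competing branch, 5-lipoxygenase and its activating protein make leukotriene A, which a hydrolase converts to the leukotriene that attracts neutrophils. Ptgs2, which encodes Cox2, is the classic inducible gene of the pathway in macrophages exposed to LPS, whereas Ptgs1 is usually regarded as the constitutive cyclooxygenase.

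Libraries held between 13299044 and 16467983 counted reads. Levels are given as CPM, reads relative to library size after scaling by TMM factors (edgeR's correction for library composition). These factors were between 1.136 and 1.144 in Veh and between 0.9309 and 0.9481 in the stimulated groups, so scaling bears mostly on comparisons with Veh. The known LXR target Abca1, a cholesterol exporter, had a mean of 1840 CPM in LPS and 5105 CPM in T0+LPS, or 1.47 on the log2 scale (adjusted p = 1.36e-10, edgeR's quasi-likelihood test). The related exporter Abcg1 differed by 2.09 in the same comparison (adjusted p = 8.04e-14, edgeR). Of 8 macrophage markers, 7 reached 1 CPM, and Itgam was listed at 0 on a row with 3 countable bases. Their summed level was 26860 to 29120 CPM in Veh, 32330 to 33720 in LPS and 35140 to 36610 in T0+LPS. This sum moved with the groups and was mostly Lyz2, with means of 19750, 21430 and 23740 CPM. The markers did not move together. Csf1r, Emr1 and Cd14 also had higher means in LPS than in Veh, and Cd68 stayed level (533.6 and 539.8 CPM). Fcgr1 (127.4 and 70.84 CPM) and Mertk (61.01 and 34.79 CPM) were lower in LPS. Markers of cells that are rich in these enzymes stayed low. For neutrophils, 1 of 7 markers reached 1 CPM, and their sum was 0.9622 to 1.506 CPM in Veh, 2.162 to 3.276 in LPS and 1.88 to 2.664 in T0+LPS. For mast cells or basophils, 1 of 8 reached 1 CPM and 6 were at 0, among them Fcer1a, Mcpt8 and Kit, of which Kit has only 16 countable bases, with sums of at most 0.1158 CPM in Veh, 2.402 in LPS and 1.602 in T0+LPS. For platelets, 1 of 6 reached 1 CPM, and Gp1bb was at 0. That sum was 9.905 to 13.1 CPM in Veh, 32.5 to 37.12 in LPS and 40.11 to 43.24 in T0+LPS, almost wholly from Pf4, a chemokine gene that macrophages also express. Dendritic cell markers, 1 of 6 above 1 CPM, summed to at most 3.121 CPM, those of T or B cells (0 of 6) to at most 0.2773 CPM, and those of fibroblasts (0 of 5) to at most 0.6612 CPM. The part of these markers in the results was not tested.

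The promoters of 3 members frame the results, since these genes showed the steepest rise, the next steepest rise and the only fall after LPS. Each window covers 250 bases before and 50 bases after the RefSeq start on GRCm38.p6 (the assembly of mm10), read along the gene's strand from chr1:150099781-150100080 (plus) for Ptgs2, chr2:30903248-30903547 (minus) for Ptges and chr2:36230176-36230475 (plus) for Ptgs1. The capitals in Ptgs2 mark the only run there that matched a searched motif.
Ptgs2: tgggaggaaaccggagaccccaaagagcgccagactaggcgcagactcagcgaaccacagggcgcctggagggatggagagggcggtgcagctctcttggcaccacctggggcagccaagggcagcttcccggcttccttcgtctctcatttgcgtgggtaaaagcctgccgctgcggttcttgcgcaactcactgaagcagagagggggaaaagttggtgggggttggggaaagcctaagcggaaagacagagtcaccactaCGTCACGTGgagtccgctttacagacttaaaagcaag
Ptges: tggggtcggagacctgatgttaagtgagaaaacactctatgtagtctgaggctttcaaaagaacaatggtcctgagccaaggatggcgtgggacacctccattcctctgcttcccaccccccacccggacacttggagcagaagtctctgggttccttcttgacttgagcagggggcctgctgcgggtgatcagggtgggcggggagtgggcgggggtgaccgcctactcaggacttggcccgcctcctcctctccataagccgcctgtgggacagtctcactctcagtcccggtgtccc
Ptgs1: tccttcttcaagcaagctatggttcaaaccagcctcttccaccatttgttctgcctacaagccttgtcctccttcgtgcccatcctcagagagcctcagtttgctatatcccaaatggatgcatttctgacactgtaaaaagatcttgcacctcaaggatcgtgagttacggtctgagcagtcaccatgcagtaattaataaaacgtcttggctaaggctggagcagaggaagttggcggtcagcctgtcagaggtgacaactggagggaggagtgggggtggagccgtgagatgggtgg

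Windows were found for 9 of the 10 genes, all but Alox5ap, and 6 motifs were searched on both strands. The capitals of Ptgs2 hold TGACG, the half-site of a cyclic AMP response element, on the minus strand from base 14 after the RefSeq start of the window. The E-box CACGTG runs from base 17, and the matches share 2 bases. The counted row of Ptgs2 starts further along, at 150100124, past the end of this window at 150100080. Both matches thus lie upstream of the counted row. TGACG was present in 20.8% and CACGTG in 7.15% of all 32851 windows in the reference table. TGACG also matched in Ptges3, and CACGTG in Ptges2. Neither Ptges nor Ptgs1 held a match to any of the 6. The kappa-B pattern, GGG followed by NNTTNCC, was in 4.79% of all windows and in none of the members' windows, which says only that those letters are not in these stretches. The AP-1 pattern TGANTCA (7.81% of windows) matched in Tbxas1 and the nuclear receptor half-site AGGTCA (16.3%) in Pla2g4a. TATAAA (13.6%) matched in Tbxas1 and in a second window of Pla2g4a. The median GC content was 57.2% over the members' windows and 52.7% over all windows.

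The first comparison, LPS against Veh, asks which steps of the pathway the macrophages changed at the RNA level within 2 hr. Of the 10 genes, 4 rose, 1 fell and 5 did not pass the test in edgeR's quasi-likelihood test at a threshold of 0.05 on p-values adjusted by Benjamini-Hochberg over 9559 genes. Over all genes tested, 32.9% rose and 31.2% fell, so a call in this comparison was common. The 4 that rose were Pla2g4a (release of arachidonate), Ptgs2 (the inducible cyclooxygenase), and Ptges and Ptges3 (prostaglandin E synthesis). The members of the leukotriene and thromboxane branches, Alox5, Alox5ap, Lta4h and Tbxas1, were not called. In the wider list below, the leukotriene genes Dpep2 and Abcc1 were called higher and Mgst3 lower. The prostaglandin D synthase gene Hpgds was called lower there. With calls this common, the counts single out no step of the pathway. The median log2 fold change of the members was 0.05. The harvest time of the Veh cultures is not given in the sources used here, so LPS and time in culture cannot be told apart. In RNA from whole cultures, fewer cells of a type and less RNA per cell cannot be told apart either.

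**Figure D1:**
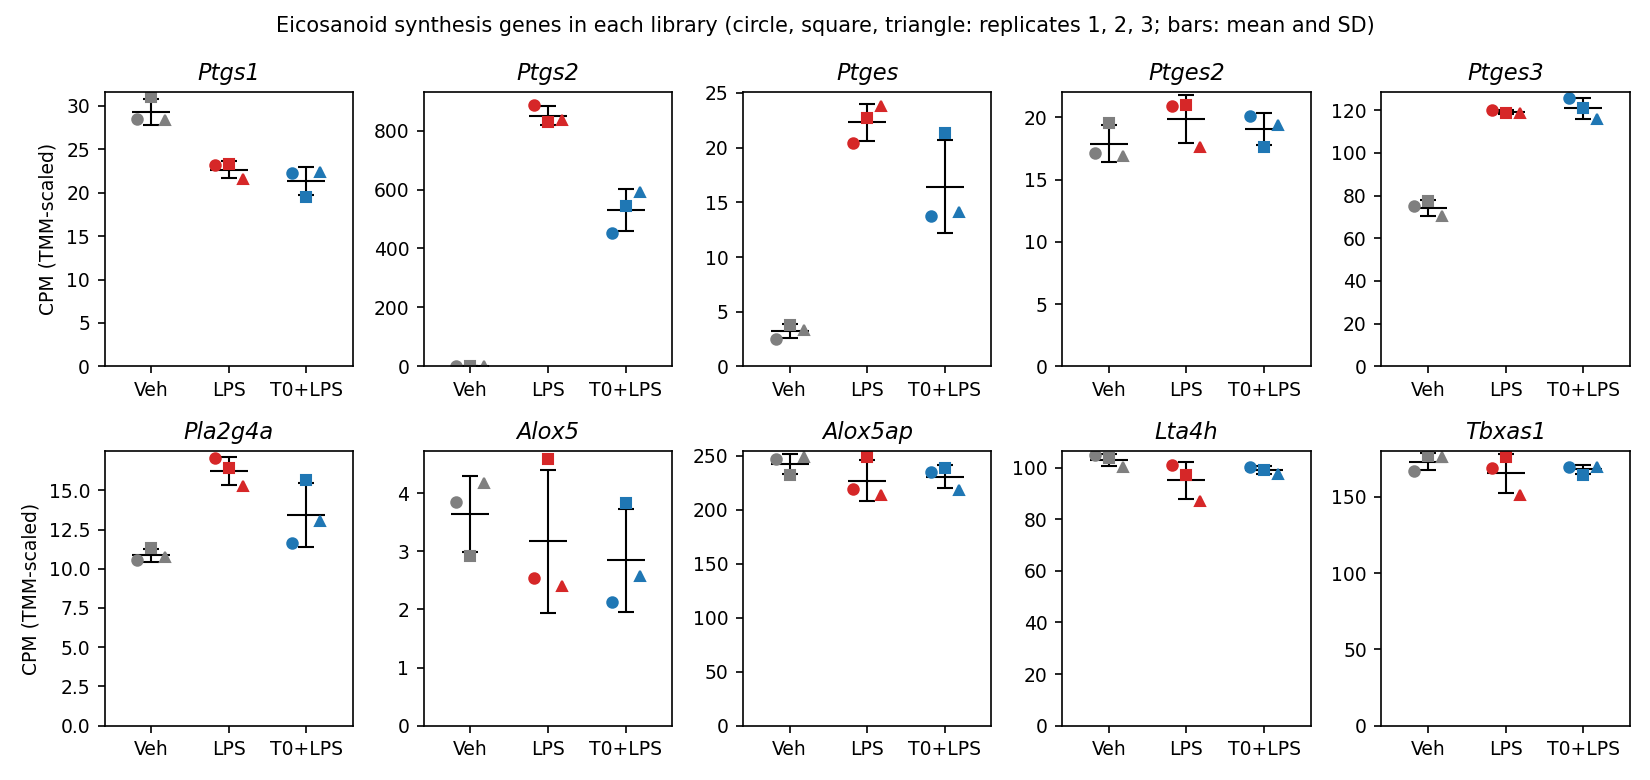
Level of each of the 10 genes in every library, in CPM with TMM scaling on linear axes that start at 0. Circles, squares and triangles are replicates 1, 2 and 3, and black bars give the mean and SD of 3 libraries. Ptgs2, Ptges, Ptges3 and Pla2g4a sit higher in LPS than in Veh and Ptgs1 sits lower. In T0+LPS only Ptgs2 lies wholly below its LPS libraries.

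Pla2g4a, which encodes the cytosolic phospholipase A that releases arachidonic acid, spans bases 149829622 to 149961284 of chromosome 1 in mm10, on the minus strand, with 18 exons in the counted row. Its level was 10.53, 11.31 and 10.72 CPM in the 3 Veh libraries and 17.04, 16.45 and 15.29 CPM in the 3 LPS libraries. Every LPS library was above every Veh library. The fold was 1.5, a log2 fold change of 0.59 (SE 0.09, adjusted p = 2.81e-05, edgeR).

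Ptgs1 (chromosome 2, 36230426 to 36252271, plus strand, 11 exons) was the member that fell. It stood at 28.44, 31.01 and 28.38 CPM in Veh and at 23.14, 23.29 and 21.54 CPM in LPS. The groups did not overlap. The log2 fold change was -0.36 (SE 0.07, adjusted p = 0.000349, edgeR), a fold of 0.777. Scaling by library totals alone gave -0.65 on the log2 scale, in a setting that moved the median of all genes by -0.28. Such a shift could not turn a fall into a rise, so it gives no further support.

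Ptgs2 (chromosome 1, 150100124 to 150108012, plus strand, 10 exons) was close to the limit of counting before LPS. The 3 Veh libraries held 7, 27 and 38 reads on this gene, or 0.3742, 1.785 and 2.201 CPM. The 3 LPS libraries held 11185, 11369 and 10808 reads, or 886.5, 827.6 and 834.5 CPM. Veh replicate 1 was the lowest by a wide margin, while the LPS libraries lay close together. The fitted fold was 600 (95% interval 480 to 749), and this interval rests on the few Veh reads. On the log2 scale the interval was 8.91 to 9.55. Fits without 1 library ran from 8.72 to 9.71, beyond both of its ends. The cyclooxygenase genes, on different chromosomes, moved in opposite directions. Per kilobase of exon, Ptgs2 stood at 0.009098, 0.03981 and 0.05362 times Ptgs1 in the Veh libraries. In the LPS libraries it stood at 26.49, 24.57 and 26.79 times Ptgs1. The balance of cyclooxygenase transcripts thus went from mostly Ptgs1 to mostly Ptgs2 in each LPS library.

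Ptges, which encodes the inducible microsomal prostaglandin E synthase that is usually coupled to Cox2, spans bases 30889471 to 30903297 of chromosome 2 (minus strand, 3 exons). Its level was 2.513, 3.769 and 3.36 CPM in Veh and 20.45, 22.71 and 23.78 CPM in LPS. No library of one group reached the other. The fold was 7.02, a log2 fold change of 2.81 (SE 0.13, adjusted p = 8.64e-12, edgeR).

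Ptges3 encodes a cytosolic prostaglandin E synthase that is also known as p23, a partner of the chaperone Hsp90. The gene (chromosome 10, 128058982 to 128077254, plus strand, 8 exons) stood at 74.89, 77.29 and 70.26 CPM in Veh and at 119.9, 118.6 and 118.6 CPM in LPS. The LPS libraries differed among themselves by little, and all were above Veh. The log2 fold change was 0.69 (SE 0.05, adjusted p = 3.09e-09, edgeR). The annotation lists a processed pseudogene, Ptges3-ps, on chromosome 6. Whether reads were divided between it and Ptges3 was not tested.

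Ptges2 encodes the membrane-associated prostaglandin E synthase (chromosome 2, 32395890 to 32402740, plus strand, 7 exons). It was at 17.16, 19.57 and 16.86 CPM in Veh and at 20.92, 20.96 and 17.6 CPM in LPS, and the groups overlapped. Its log2 fold change of 0.16 (95% interval -0.04 to 0.35) did not pass the test (adjusted p = 0.147, edgeR), and its direction reversed under scaling by library totals. Without LPS replicate 3 it was called higher, at 0.23 on the log2 scale (adjusted p = 0.036, edgeR). Among the 3 E synthases, per kilobase, Ptges took 1.441% to 2.042% of the total in Veh and 7.216% to 8.554% in LPS. Ptges3 kept 78.15% to 80.17% in Veh and 78.16% to 79.62% in LPS. Ptges, with the largest fold of the 3, was thus still a small part of their summed transcripts. How much of Ptges3, also a chaperone partner, serves prostaglandin E synthesis was not tested.

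The thromboxane and leukotriene genes among the 10 members were already expressed in Veh, and none was called. Tbxas1, thromboxane A synthase (chromosome 6, 38918986 to 39084579, plus strand, 13 exons) was at 166.6, 176.5 and 175.7 CPM in Veh and at 168.8, 176.1 and 151.3 CPM in LPS. Alox5ap, the protein that presents arachidonic acid to 5-lipoxygenase (chromosome 5, 149265058 to 149288047, plus strand, 5 exons), had 246.7, 232.0 and 249.3 CPM in Veh and 219.4, 248.7 and 213.3 CPM in LPS. Lta4h, the leukotriene A hydrolase (chromosome 10, 93453396 to 93484896, plus strand, 19 exons), had 105.0, 103.8 and 100.3 CPM in Veh and 101.1, 97.03 and 87.09 CPM in LPS. All 3 overlapped between the groups, with log2 fold changes of -0.06, -0.09 and -0.11. Their 95% intervals spanned 0 and reached no lower than -0.18, -0.21 and -0.23, and the adjusted p-values were 0.339, 0.154 and 0.0843 (edgeR). These 3 were called lower under scaling by library totals, with log2 fold changes of -0.34, -0.38 and -0.40, a setting that moved the median of all genes by -0.28. With no filter on low counts, Alox5ap (-0.12, adjusted p = 0.032, edgeR) and Lta4h (-0.14, 0.026) were called too, as were Alox5ap without LPS replicate 2 (-0.17, 0.0044) and Lta4h without LPS replicate 1 (-0.16, 0.031).

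Alox5, the 5-lipoxygenase itself, was the least measured member of that branch. The gene (chromosome 6, 116410071 to 116461178, minus strand, 14 exons) had 72, 44 and 72 reads in Veh and 32, 63 and 31 reads in LPS. In CPM this was 3.849, 2.909 and 4.171 in Veh and 2.536, 4.586 and 2.394 in LPS. LPS replicate 2 stood above all Veh libraries and the other LPS libraries below all of them. The 95% interval of the log2 fold change, -0.69 to 0.30, was the widest of all 10 members, and it did not pass the test (adjusted p = 0.481, edgeR). Without LPS replicate 2, Alox5 was called lower, at -0.58 on the log2 scale (adjusted p = 0.037, edgeR).

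The second comparison, T0+LPS against LPS, asks what the LXR agonist added before LPS did to the same genes. Ptgs2 was the only one of the 10 that passed the test, and it was lower. Over the 9348 genes tested, 1.83% were called lower and 1.35% higher. No member was called higher, and the members' median log2 fold change was -0.07, against 0.00 over all genes.

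Ptgs2 stood at 452.5, 544.7 and 593.0 CPM in the T0+LPS libraries, from 5945, 7823 and 8554 reads. The highest of these was below the lowest LPS library at 827.6 CPM. The log2 fold change was -0.68 (95% interval -0.83 to -0.53, adjusted p = 4.4e-05, edgeR), a fold of 0.624. It was called in all 11 alternative settings and in all 6 fits without 1 library. The T0+LPS libraries varied more than the LPS libraries, with SDs of 71.4 and 32.2 CPM. Per kilobase, Ptgs2 stood at 14.03, 19.32 and 18.37 times Ptgs1 in T0+LPS, where the lowest LPS library had 24.57 times. Ptgs1 itself was at 22.3, 19.5 and 22.32 CPM in T0+LPS, overlapping LPS, with a log2 fold change of -0.09 (95% interval -0.26 to 0.09).

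Ptges came next in size and was split among its libraries. It stood at 13.78, 21.31 and 14.14 CPM in T0+LPS. Replicates 1 and 3 were below all LPS libraries, while replicate 2 lay among them. The log2 fold change was -0.44 (95% interval -0.73 to -0.15) with an unadjusted p of 0.00566 and an adjusted p of 0.113 (edgeR), so it was not called. Without T0+LPS replicate 2 it was called, with -0.67 (adjusted p = 0.0033, edgeR), and it was also called at -0.44 when no filter on low counts was used (adjusted p = 0.00052, edgeR).

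Pla2g4a had a like pattern at a smaller size. Its T0+LPS libraries were at 11.65, 15.67 and 13.03 CPM. Here too replicate 2 was the highest, and it overlapped LPS. The log2 fold change was -0.27 (95% interval -0.51 to -0.03, adjusted p = 0.273, edgeR), and it was called in 0 of the 11 alternative settings and in 0 of the 6 fits without 1 library. The T0+LPS means of Ptgs2, Ptges and Pla2g4a differed from the LPS means by -37.6%, -26.46% and -17.29%. Whether T0 acts on these 3 genes to different degrees was not tested.

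**Figure D2:**
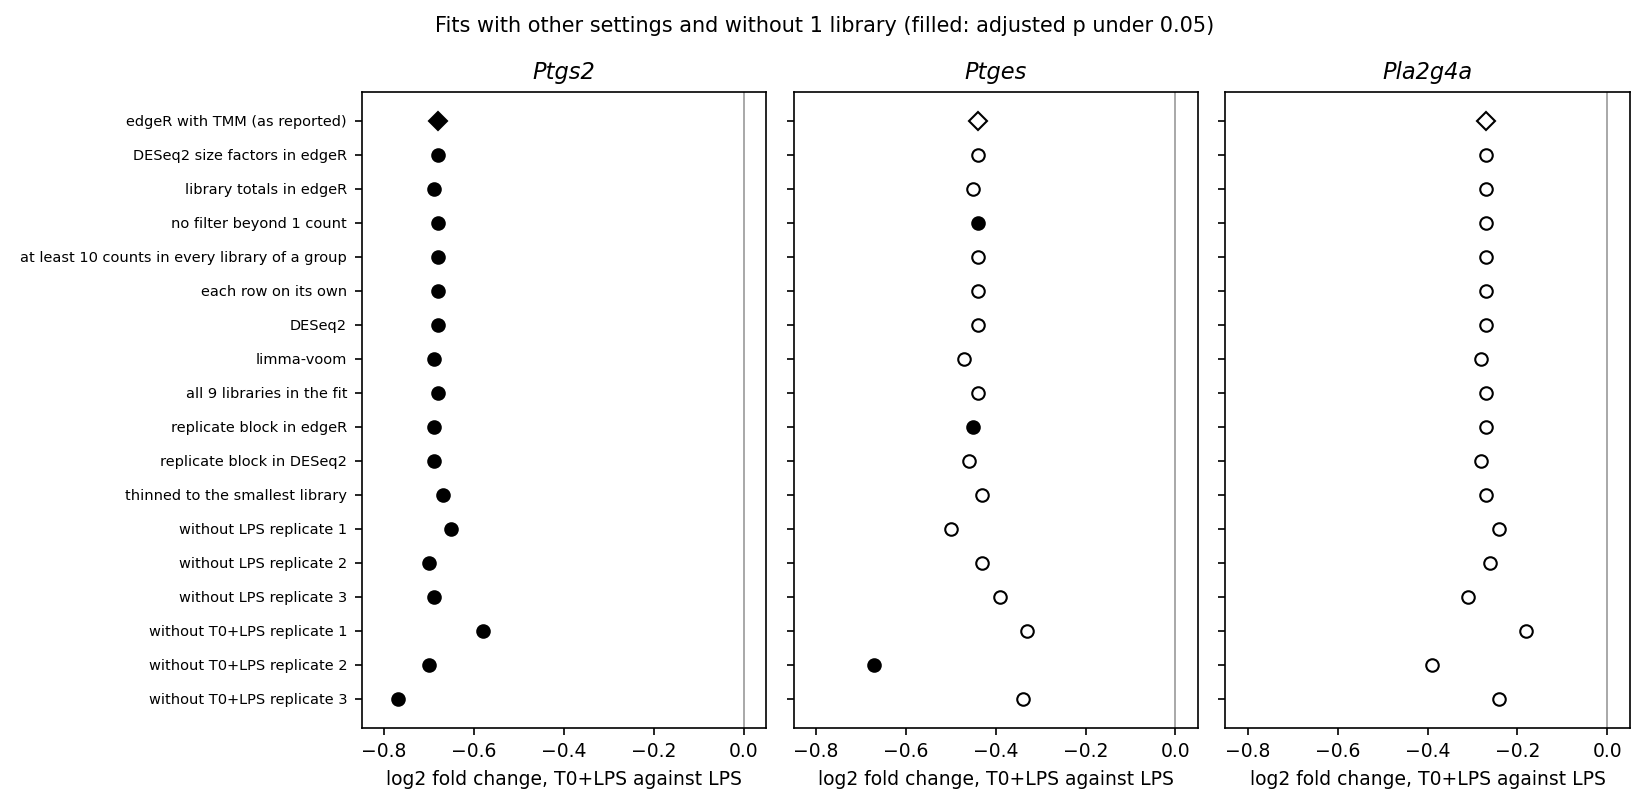
Log2 fold change, T0+LPS over LPS, for Ptgs2, Ptges and Pla2g4a in the fit as reported (diamond), in 11 other settings and without each of the 6 libraries (circles), with filled symbols at an adjusted p under 0.05. Ptgs2 is filled throughout between -0.77 and -0.58, Ptges is filled in 3 fits and Pla2g4a in none, and the estimates of all 3 shift most when a T0+LPS library is left out.

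The other members overlapped between LPS and T0+LPS. Ptges3, with 125.7, 120.8 and 115.9 CPM in T0+LPS, had a log2 fold change of 0.02 (95% interval -0.09 to 0.13, edgeR). Ptges2 was at 20.1, 17.62 and 19.41 CPM, with an interval of -0.26 to 0.14. Alox5ap was at 235.3, 238.7 and 218.5 CPM and Lta4h at 100.4, 99.22 and 97.4 CPM, with intervals of -0.10 to 0.15 and -0.07 to 0.18. Tbxas1, at 169.4, 164.5 and 169.7 CPM, had an interval of -0.10 to 0.14. For Alox5, at 2.131, 3.83 and 2.565 CPM, the interval of -0.75 to 0.42 left room for a large change in either direction.

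**Figure D3:**
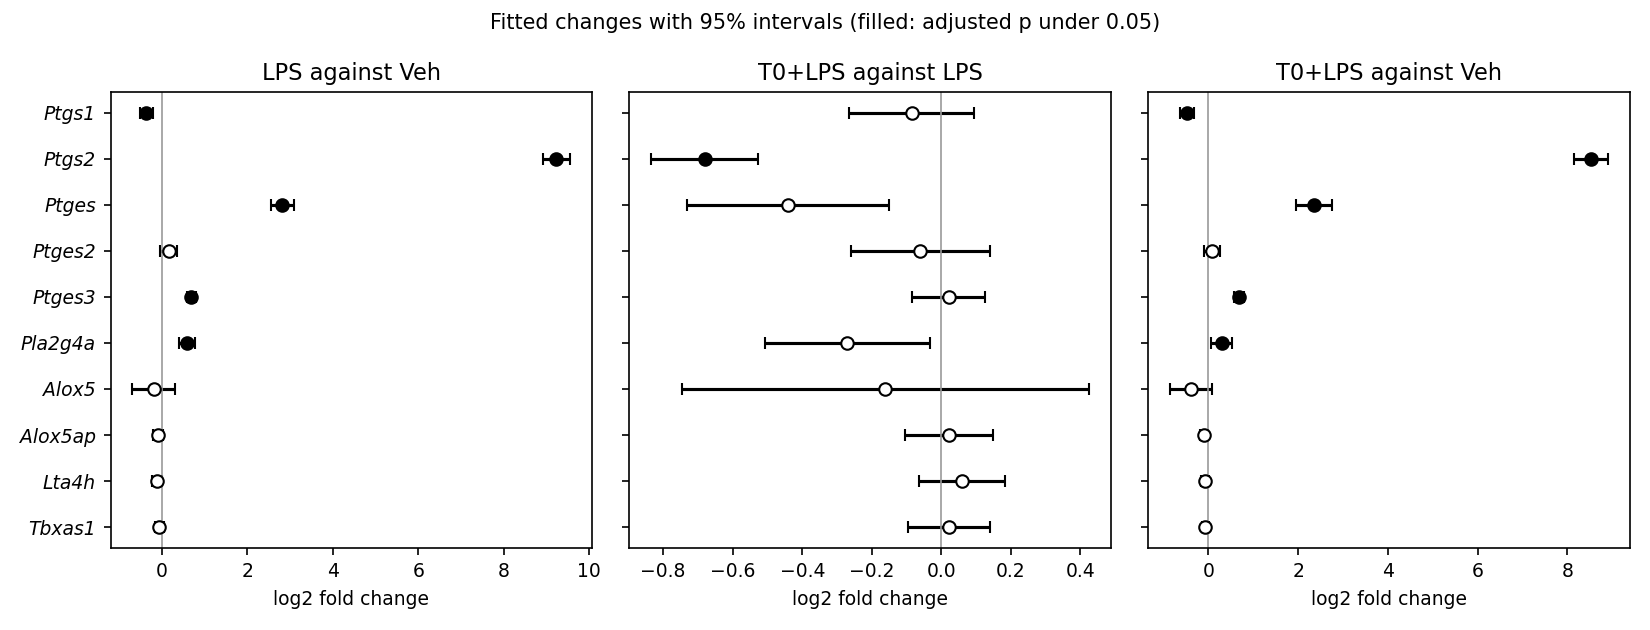
Fitted log2 fold changes of the 10 genes in the 3 comparisons, with 95% intervals as bars and filled circles for an adjusted p under 0.05. The middle panel has a narrower scale, and there Ptgs2 at -0.68 is the only filled circle, while the intervals of Ptges and Pla2g4a lie below 0 without a call.

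The third comparison set T0+LPS against Veh, which differ by both agents. It uses the T0+LPS libraries of the second comparison and the Veh libraries of the first, so it is no independent repeat of either. Again 4 members were higher and 1 was lower, where 32.4% of 9636 genes were called higher and 32.9% lower (edgeR, adjusted p under 0.05). Ptgs2 was 368 times its Veh level and Ptges 5.09 times. Ptges3 was at 1.61 times, the same value as in LPS against Veh. Ptgs1 was lower, with a log2 fold change of -0.47 (SE 0.07, adjusted p = 3.29e-05, edgeR). Pla2g4a had 0.29 (SE 0.11, adjusted p = 0.0293, edgeR), and this call was the least firm. It was lost without Veh replicate 1 (adjusted p = 0.082), without Veh replicate 3 (adjusted p = 0.075), without T0+LPS replicate 2 (0.17), with DESeq2 (0.071), with the replicate block in DESeq2 (0.19) and under scaling by library totals, where the log2 fold change was 0.03. The 5 genes of the first comparison that were not called there were not called here either, with log2 fold changes between -0.38 (Alox5) and 0.07 (Ptges2). Alox5 was called lower without T0+LPS replicate 2 (-0.65, adjusted p = 0.025, edgeR). Alox5ap was called lower without Veh replicate 2 (-0.13, adjusted p = 0.036, edgeR) and with no filter on low counts (-0.10, adjusted p = 0.03, edgeR). Scaling by library totals called Alox5, Alox5ap, Lta4h and Tbxas1 lower.

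Per kilobase of exon, which allows genes to be compared with each other, the members spanned a wide range. In Veh, Alox5ap led with 284.1 ± 10.91 CPM per kilobase (SD, n = 3), followed by Tbxas1 with 87.42, Lta4h with 49.87 and Ptges3 with 37.95. Ptgs1 with 10.22 and Ptges2 with 9.151 came next and overlapped each other. Pla2g4a had 3.813, Alox5 1.289 and Ptges 0.8812 CPM per kilobase, and Alox5 and Ptges overlapped. Ptgs2 was last at 0.3507. In LPS, Ptgs2 stood second with 205.0 CPM per kilobase, between Alox5ap with 266.0 and Tbxas1 with 83.61, and it overlapped neither. Ptges3 with 60.93 now stood above Lta4h with 46.02, and Ptges with 6.118 drew level with Pla2g4a with 5.713, their libraries overlapping. Alox5 was last with 1.122. In T0+LPS, Ptgs2 at 127.9 kept the second place, and only Pla2g4a and Ptges traded places, again with overlap. Alox5ap stood at 179.5 to 365.4 times Alox5 per kilobase over the 9 libraries, a ratio that moves with the few Alox5 reads. Ptgs2 took at most 0.3329% of all reads on the 10 genes in a Veh library, 53.18% to 56.18% in LPS and 39.24% to 46.84% in T0+LPS.

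**Figure D4:**
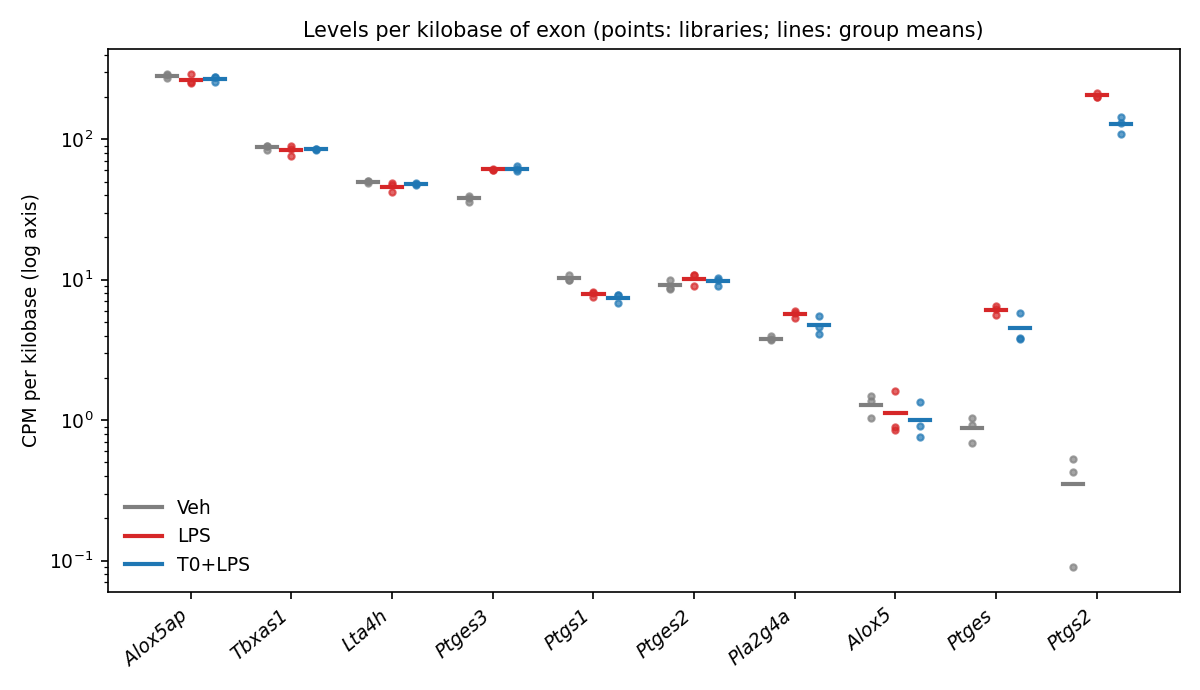
Level per kilobase of exon of each gene on a log axis, with points for libraries and lines for means of Veh, LPS and T0+LPS. Ptgs2 moves from the lowest place in Veh, 0.3507 CPM per kilobase, to the second in LPS, 205.0, while the means of Alox5ap, Tbxas1 and Lta4h each stay near their own Veh level, at 284.1, 87.42 and 49.87 CPM per kilobase.

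The wider pathway was read from a list of 58 further symbols in the table: other phospholipases, enzymes of the arachidonate pool, other synthases, inactivating enzymes, transporters and receptors. In LPS against Veh, 23 of the 58 were tested, and 7 rose and 9 fell (edgeR, adjusted p under 0.05), with a median log2 fold change of -0.17. These counts stand beside the 32.9% and 31.2% over all genes. In T0+LPS against LPS, 21 were tested, 2 rose and 1 fell, with a median of 0.01, beside 1.35% and 1.83% over all genes. In T0+LPS against Veh, 23 were tested, 7 rose and 10 fell, beside 32.4% and 32.9%. None of the 6 other lipoxygenases and none of the 4 leukotriene receptors passed the filter on low counts. Several genes of the list have few bases that no other row shares, such as 63 for the receptor gene Ptger4 and 19 for Cysltr1, so the table hardly measures them.

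**Figure D5:**
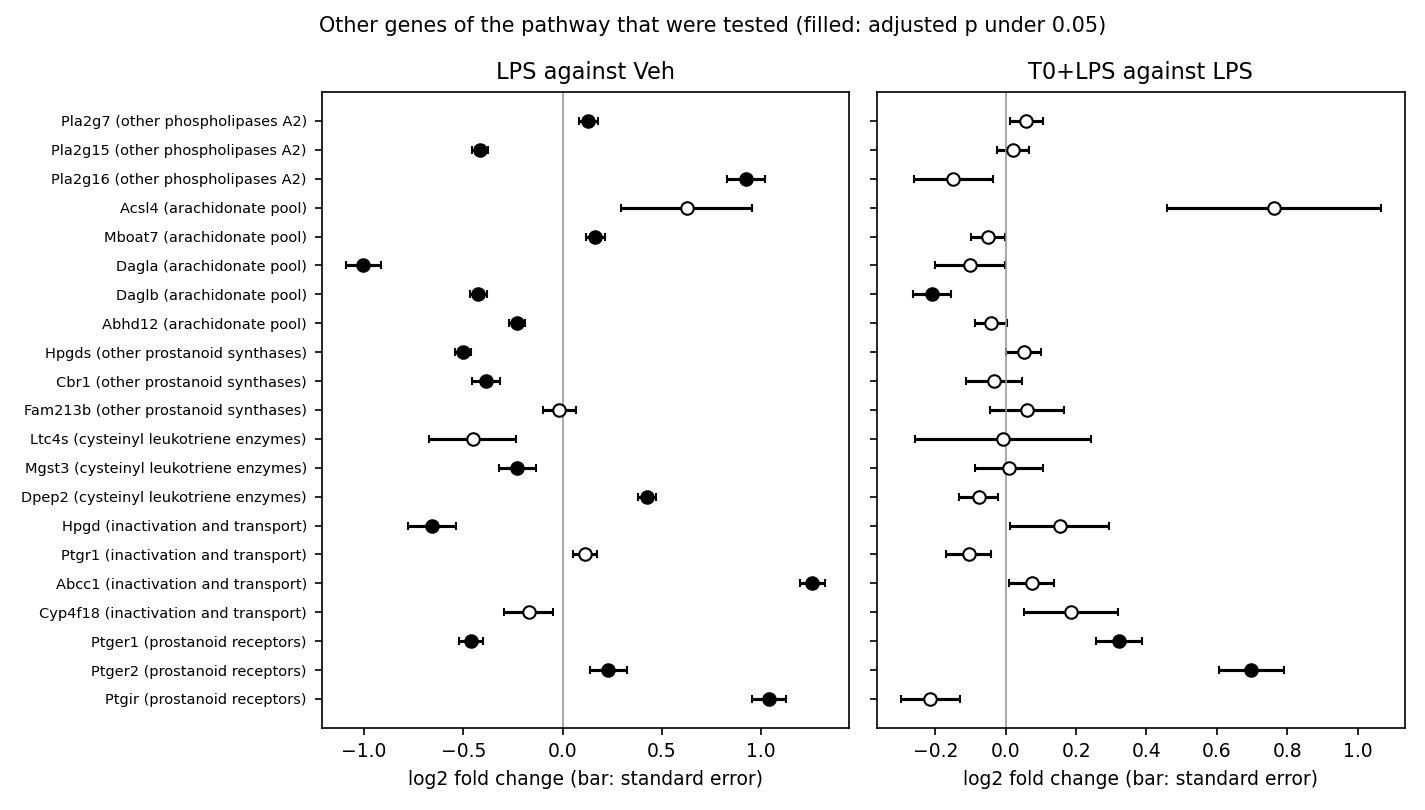
Log2 fold changes, with SE as bars, of the 21 further pathway genes that were tested in both comparisons shown, with filled circles for an adjusted p under 0.05. In LPS against Veh the filled circles lie on both sides of 0, from Dagla at -1.004 to Abcc1 at 1.26, and in T0+LPS against LPS only Daglb, Ptger1 and Ptger2 are filled.

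Upstream of the cyclooxygenases, both diacylglycerol lipases were lower in LPS. These enzymes feed arachidonate into the endocannabinoid 2-AG. Dagla had means of 34.98 CPM in Veh and 17.4 CPM in LPS, which is -1.004 on the log2 scale (SE 0.09, adjusted p = 5.48e-08, edgeR). Daglb went from 799.1 to 594.5 CPM. Pla2g16, a phospholipase of the adipose type, rose from 8.459 to 16.06 CPM, whereas the lysosomal Pla2g15 fell from 376.0 to 281.5 CPM.

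On the synthesis side, Hpgds, which makes prostaglandin D, fell from 379.4 ± 7.119 to 267.8 ± 4.841 CPM (SD, n = 3), by -0.50 on the log2 scale (SE 0.04, adjusted p = 1.5e-08, edgeR). It had 277.4 CPM with T0. The carbonyl reductase gene Cbr1, which acts on prostaglandin E, fell from 38.67 to 29.61 CPM. Of the genes for cysteinyl leukotrienes, Dpep2, a dipeptidase that converts leukotriene D, rose from 908.2 to 1217 CPM. Mgst3, a microsomal glutathione transferase, fell from 20.92 to 17.82 CPM with an adjusted p of 0.0399 (edgeR), and this call was lost in 3 of 6 fits without 1 library, where the largest adjusted p was 0.13, and in 2 of 11 alternative settings.

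Among genes that export or inactivate eicosanoids, Abcc1, a transporter that exports leukotriene C, rose from 285.1, 257.3 and 264.3 CPM in Veh to 610.7, 592.4 and 724.9 CPM in LPS. The groups were far apart, with a log2 fold change of 1.26 (SE 0.07, adjusted p = 4.94e-11, edgeR). Hpgd, the main prostaglandin-degrading dehydrogenase, was at 45.39, 49.06 and 52.25 CPM in Veh and at 22.03, 35.59 and 34.9 CPM in LPS. It fell, with a log2 fold change of -0.66 (SE 0.12, adjusted p = 0.000157, edgeR). LPS replicate 1 was the lowest, and without it the log2 fold change was -0.47.

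The receptors held both genes of the list that rose with T0. Ptger2, a prostaglandin E receptor that signals through cyclic AMP, was at 17.75, 16.38 and 19.15 CPM in LPS and at 28.24, 31.61 and 26.48 CPM in T0+LPS. All T0+LPS libraries were above all LPS libraries, and above Veh at 15.24, 13.62 and 16.51 CPM. The log2 fold change against LPS was 0.70 (SE 0.09, adjusted p = 0.000393, edgeR), and it was called in all 11 alternative settings and in all 6 fits without 1 library. Ptger1, another prostaglandin E receptor, fell from 113.8 CPM in Veh to 82.46 CPM in LPS and was at 103.1 CPM in T0+LPS. Its log2 fold change with T0 was 0.32 (SE 0.07, adjusted p = 0.0114, edgeR), and the call was lost without LPS replicate 1 (0.26, adjusted p = 0.089). The level of Ptger1 is uncertain, because the strand setting of the counting is not given in the sources used here. Ptgir, the prostacyclin receptor, rose from 17.0 CPM in Veh to 34.73 CPM in LPS and had 29.89 CPM with T0. Daglb, the gene of the list that fell with T0, had 514.3 CPM there, a log2 fold change of -0.21 with an adjusted p of 0.0491 (edgeR). That call was kept in 6 of 11 alternative settings and in 1 of 6 fits without 1 library, where the largest adjusted p was 0.27.

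The genes most like 5 of the members were sought among 7299 genes by the root mean square difference of centred log2 CPM over the 9 libraries, where 0 would be the same pattern. For Ptgs2 they were Il1b (0.256), Gbp5 (0.418) and Socs3 (0.433). Il1b had means of 1.784, 1143 and 817.3 CPM in Veh, LPS and T0+LPS. For Ptges they were Adora2b (0.145), E2f8 (0.195) and Ifi203 (0.218). For Ptgs1 they were Ech1 (0.047), Sgpp1 (0.050) and Atp6v0d2 (0.053). For Alox5 they were Ncapd2 (0.198), Hells (0.221) and Bub1b (0.233), and for Tbxas1 Sdhc (0.024), Mios (0.027) and Qdpr (0.030). Alox5 itself averaged 3.643, 3.172 and 2.842 CPM in Veh, LPS and T0+LPS, below the mean of 5 CPM asked of the 7299 genes. Its SD in LPS was 38.67% of its mean, so its neighbours carry little. Members that move little have many close neighbours by this measure, so small values there carry less than for Ptgs2 or Ptges.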

How the data were processed

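Total RNA of BMDMs was polyA-selected, made into 9 libraries and sequenced by the authors. Per their methods, cutadapt removed adaptors, HISAT2 placed reads on the mm10 transcriptome, and featureCounts assigned them to RefSeq entries. The deposited values are raw counts, with 1 row per RefSeq transcript. Reads on bases shared between rows are not counted. Further deposited tables of the authors hold their own fold changes, p-values and gene names for comparisons, and were not used. The strand setting of the counting is not given in the sources used here.

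Rows were summed per symbol. Genes kept by filterByExpr in the 6 libraries compared were tested by quasi-likelihood (edgeR 4.0.16, R 4.3.3) with TMM scaling and Benjamini-Hochberg adjustment over all genes tested. Calls were made at an adjusted p under 0.05. The 11 alternatives were other scalings, filters and rows, limma 3.58.1 with voom weights, DESeq2 1.42.0, a fit to all 9 libraries, thinning to the smallest library and a replicate block, and 6 more fits per comparison left out 1 library each. CPM per kilobase used exon bases of the counted row. The edgeR test was also run on simulated counts with the same variability for every gene. That simulation does not cover genes that varied more between libraries, such as Ptgs2 in Veh or Alox5. Total counts limit the precision of low genes most.

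The members and the lists were chosen with earlier results of these data known. Values of all 10 members are given. Pathway genes named for a call are at most 2 per role and comparison, with the largest changes among those called that averaged 5 CPM or more, and genes of like pattern are the 3 nearest. Chi-square per degree of freedom between libraries of a group was between 2.75 and 7.18, more than sampling noise, so no library was merged with another. Promoter sequences are those of RefSeq on GRCm38.p6, and the protein sequences of the members were not used here.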

Additional observations from a re-analysis of the deposited data

How the results depend on the processing

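Over all settings and left-out libraries, the fits of the 10 genes mostly kept direction and call: 160 of 170 in LPS against Veh, 161 of 170 in T0+LPS against LPS and 156 of 170 in T0+LPS against Veh. Scaling by library totals called 8 members in LPS against Veh and 8 in T0+LPS against Veh, in place of 5 each. It moved the median of all genes by -0.28 and -0.29, gave 1694 higher and 5411 lower genes and 1659 higher and 5523 lower genes, and reversed Ptges2 to -0.12 and -0.19. In T0+LPS against LPS, 2 members, Ptges and Ptgs2, were called in place of 1 with no filter beyond 1 count and with the replicate block in edgeR, where Ptges had an adjusted p of 0.013 and Ptgs2 a log2 fold change of -0.69. With the block in DESeq2, Ptges was not called (adjusted p = 0.22). Leaving out 1 library gave 1 to 2 members there, 5 to 7 in LPS against Veh and 4 to 6 in T0+LPS against Veh. Values near 0 changed sign in T0+LPS against LPS: over the fits without 1 library Ptges3 ranged from -0.01 to 0.05, Alox5 from -0.44 to 0.21, Alox5ap from -0.02 to 0.09 and Tbxas1 from -0.04 to 0.07. Alox5 was positive without LPS replicate 2 and, at 0.002, without T0+LPS replicate 1, which also turned Ptges3. Alox5ap was negative without LPS replicate 1 (-0.002), and Alox5ap and Tbxas1 were without LPS replicate 3. Over all genes, calls in T0+LPS against LPS, 126 higher and 171 lower, became 225 and 285 with no filter, 155 and 230 with the replicate block in edgeR, 165 and 224 in the fit to all 9 libraries, 70 and 83 with the block in DESeq2, 59 and 82 without LPS replicate 1, 86 and 103 without T0+LPS replicate 1, and 78 and 94 without T0+LPS replicate 2. Same-numbered libraries deviated with correlations between -0.11 and 0.12, so no strong shared replicate effect was seen. The sources used here do not say whether same-numbered cultures were paired, and the block is given here alone. Causes were not tested. The lowest counts among the members were those of Ptgs2 in Veh, 7 to 38 reads, and of Alox5.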
